A study of Mus musculus with 8 samples.

Results

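The Hox genes encode homeodomain transcription factors that lie in 4 clusters, Hoxa to Hoxd, on mouse chromosomes 6, 11, 15 and 2. They were followed here in 3 kinds of mouse culture on Affymetrix expression arrays. Members were all gene symbols made of Hox, a cluster letter and a paralogue number, each read through the brightest of its probe sets over the 8 arrays. RefSeq lists 39 such genes. Of these, 33 had a probe set that names no other gene, out of 18194 genes measured in that way, and they were covered by 48 such probe sets. Hoxb8 and Hoxd4 lie only on probe sets that name 2 genes, and the rest were not analysed here. By cluster, the measured genes were 9 of 11 in Hoxa, 9 of 10 in Hoxb, 7 of 9 in Hoxc and 8 of 9 in Hoxd.

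The group PSC (3 arrays) holds parthenogenetic stem cells of the strain C57BL/6, made from oocytes of superovulated mice that were activated without sperm by strontium chloride, grown to blastocysts and taken at day 6. These cells carry maternal genomes only and no Y chromosome. The group EB_PSC (2 arrays) holds embryoid bodies of the same cells and strain, which are aggregates of differentiating cells, after 15 days. The group ESC (3 arrays) holds embryonic stem cells of the single line R1, kept on feeder cells (mouse embryonic fibroblasts) and with leukemia inhibitory factor. PSC and ESC differ in origin, genome, line and sex chromosomes, and these cannot be told apart here. The labels leave it unsaid whether the arrays of a group are separate cultures. The p-values therefore cover no more than the spread among these arrays, and that spread may be technical.

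Within a cluster the Hox genes are read in the same order in which they lie. Genes with low paralogue numbers, at the 3' end, are switched on early and in anterior tissue such as the hindbrain. Genes with high numbers follow later and further back, in the trunk, tail and limbs. In pluripotent cells the clusters are known to be held silent under Polycomb marks. Retinoic acid opens them from the 3' end, whereas Cdx factors, Wnt and Fgf signals drive the central and posterior genes. Hox proteins bind DNA together with TALE homeodomain cofactors of the Pbx, Meis and Pknox families. In the embryonic heart, anterior Hox genes mark retinoic acid-responsive progenitors of the second heart field.

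RefSeq promoter sequences (assembly GRCm38.p6) show the 2 kinds of site through which this network is known to act. Promoters could be matched for 19 of the 33 measured genes, as 21 sequences, and 14 genes were not matched, among them Hoxb2 and Hoxb3. In the 250 bases before the start, both strands were searched for the Hox-Pbx motif TGATNNAT and for a retinoic acid response element, written as GNTCA, then 6 bases of any kind, then GNTCA again. The Hox-Pbx letters occurred in 3 of the 21 Hox promoters, those of Hoxa2, Hoxb1 and Hoxd11, and in 2524 of all 32851 promoters of that length (7.68%). The response element letters occurred in 0 of the 21 and in 255 of all promoters (0.776%), among them those of Rarb and Cyp26a1. These latter genes encode a retinoic acid receptor and the main retinoic acid-degrading enzyme, and both rose in embryoid bodies, as described further on. The Hoxb1 promoter is shown because its Hox-Pbx site is known from autoregulation in the hindbrain, and those of Rarb and Cyp26a1 because their genes report retinoic acid signalling. Capitals mark the matched letters, the sequences read 5' to 3' on the strand of the gene, and a match is a description of letters only.
Hoxb1 (chr11:96365508-96365757, plus strand, match 162 to 155 bases before the start): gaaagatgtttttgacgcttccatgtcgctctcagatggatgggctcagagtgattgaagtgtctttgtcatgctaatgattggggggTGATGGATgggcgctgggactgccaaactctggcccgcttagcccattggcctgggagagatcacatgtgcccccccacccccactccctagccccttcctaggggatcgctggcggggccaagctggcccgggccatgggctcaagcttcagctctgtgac
Rarb (chr14:16575477-16575726, minus strand, match 52 to 37 bases before the start): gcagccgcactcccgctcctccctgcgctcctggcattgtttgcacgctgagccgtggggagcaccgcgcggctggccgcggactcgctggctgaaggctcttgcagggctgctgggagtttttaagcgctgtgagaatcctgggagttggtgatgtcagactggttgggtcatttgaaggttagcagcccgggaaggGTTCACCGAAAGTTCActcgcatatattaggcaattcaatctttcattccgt
Cyp26a1 (chr19:37697558-37697807, plus strand, match 32 to 17 bases before the start, on the opposite strand): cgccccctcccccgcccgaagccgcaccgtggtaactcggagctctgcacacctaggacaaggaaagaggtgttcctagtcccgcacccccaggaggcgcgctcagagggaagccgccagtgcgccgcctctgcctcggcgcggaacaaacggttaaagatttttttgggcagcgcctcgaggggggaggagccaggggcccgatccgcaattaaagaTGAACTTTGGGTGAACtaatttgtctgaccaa
The 21 matched Hox promoters had a median of 13 CG dinucleotides per 250 bases (quartiles 7 and 20). Over all promoters the median was 6 (quartiles 2 and 16), so the ranges overlap.

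All levels are deposited log2 RMA values. The 8 arrays had medians from 5.39 to 5.47, and arrays of the same group correlated at 0.991 to 0.995 over all 45101 probe sets. The 10 pluripotency markers all fell in embryoid bodies, with a median difference of -2.03 from PSC, where 25.2% of all genes fell. The median of all deposited values, 5.44, served as the limit below which a probe set was called dim. The 7 Y-linked genes measured, which have no template in PSC, read 3.72 to 5.99 there, so values of that size can be read without a transcript. For a gene with either mean in that range, the true difference may be larger than the one measured, and no fold is given. RNA quality, read as the 3' minus 5' difference of control probe sets, ranged from -0.09 to 0.17 for Gapdh and from 0.69 to 1.54 for Actb over the arrays, and its part in the results was not tested.

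Most Hox genes were dim in every group. Of the 33 genes, 22 had means below 5.44 in PSC, EB_PSC and ESC alike (66.7%, against 31.8% of all genes). Means in PSC ran from 3.24 to 7.34 with a median of 4.59, and the medians were 4.56 in EB_PSC and 4.62 in ESC. The 6 genes above the limit in all 3 groups were Hoxa3, Hoxa5, Hoxa7, Hoxa9, Hoxb3 and Hoxc9. Hoxb2, Hoxb4, Hoxc6, Hoxc13 and Hoxd9 were above it in at least 1 group. The Hoxd cluster, which patterns limbs and the posterior axis, was dim throughout in 7 of its 8 measured genes. A value above the limit was not shared by all probe sets of a gene. Hoxa5 read 7.34 ± 0.08 (SD, n = 3) in PSC on its brightest probe set and 4.005 on its other, and Hoxa9 read 6.38 ± 0.12 and 3.85. Hoxa3 read 6.47 ± 0.17 against 3.55 to 4.21 on its 3 others. The brightest set of Hoxa5 carries the suffix _x_at, which marks probes that may also bind other transcripts.

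**Figure D1:**
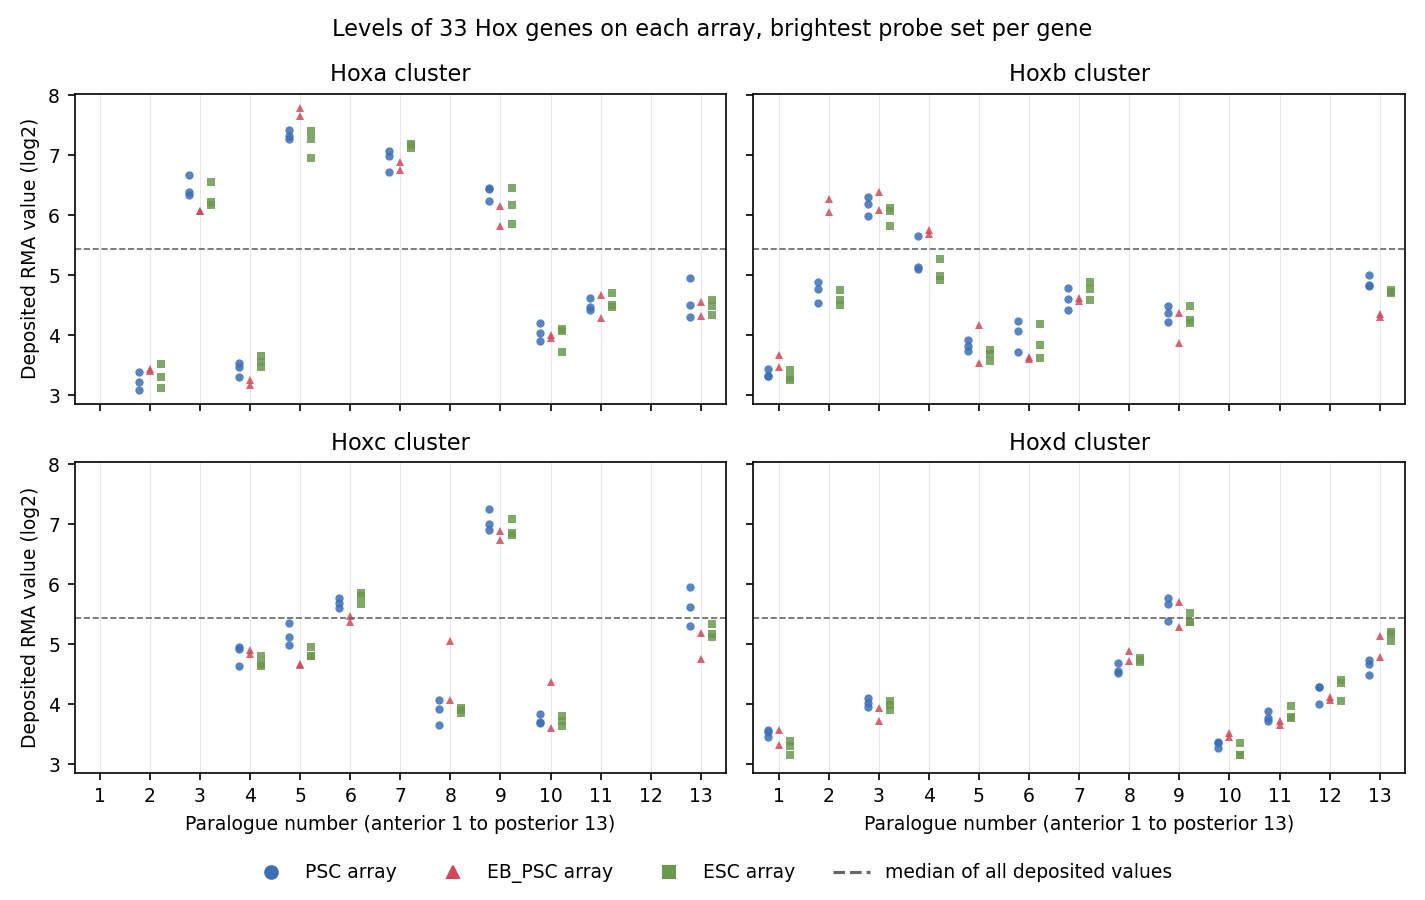
Deposited RMA values (log2, y axis) of the 33 measured Hox genes on every array, by cluster and paralogue number (x axis); circles are PSC, triangles EB_PSC and squares ESC arrays, and the dashed line is the median of all deposited values, 5.44. Most genes lie below the line in all groups, and Hoxb2 is the gene whose triangles stand furthest from the other symbols.

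Embryoid bodies were compared with the PSC they came from to see whether the clusters opened over 15 days of differentiation. Few Hox genes changed, and the change was small. Of the 33 genes, 7 passed the test (adjusted p below 0.05, limma, Benjamini-Hochberg over all genes), or 21.2%, where 43.9% of all 18194 genes did. Hoxb2, Hoxc8 and Hoxa5 rose (3 of 33, where 18.8% of all genes rose), and Hoxc13, Hoxb13, Hoxc5 and Hoxa3 fell (4 of 33, where 25.2% of all genes fell). Among genes dim in all groups, 13.6% of 22 Hox genes and 13.6% of 5781 genes were called. Among genes above the limit in at least 1 group, 36.4% of 11 Hox genes and 58.1% of 12413 genes were. Hoxb2 alone differed by at least 1 log2 unit, which 16% of all genes did with an adjusted p below 0.05. At an unadjusted p below 0.05 the Hox count was 11. The median Hox difference was -0.08, against -0.09 over all genes, and the median absolute difference was 0.22 against 0.32. Arrays of the groups did not overlap for 18 of the 33 genes (54.5%), as for 62.8% of all genes. In bulk samples, more cells of a type and more RNA per cell cannot be told apart.

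**Figure D2:**
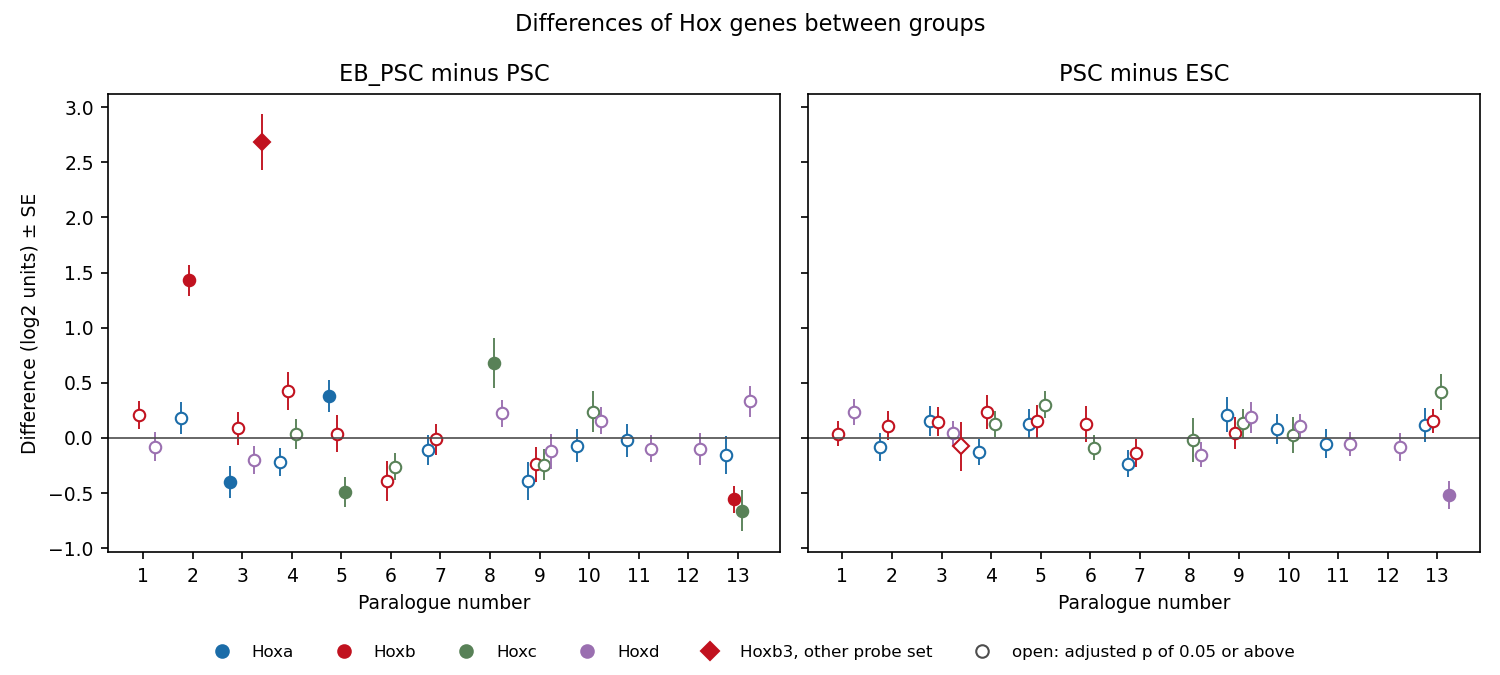
Differences in log2 units ± SE (y axis) by paralogue number (x axis) for EB_PSC minus PSC and PSC minus ESC; colours give the cluster, filled points have an adjusted p below 0.05, and the diamond is the dimmer probe set of Hoxb3. Hoxb2 at 1.43 and the diamond at 2.68 stand above the other points on the left, and only Hoxd13 at -0.52 is filled on the right.

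Among the anterior genes (paralogues 1 to 4), Hoxb2 carried the clearest rise. Hoxb2, which helps to specify hindbrain segments, read 4.89, 4.78 and 4.54 in PSC, 6.05 and 6.27 in EB_PSC, and 4.51, 4.60 and 4.76 in ESC. Both embryoid body arrays lay above all 6 stem cell arrays. The difference from PSC was 1.43 ± 0.14 (limma adjusted p = 2.87e-06), and the call held in all 20 alternative settings run for it, with differences from 1.32 to 1.54.

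Hoxb3, the neighbour of Hoxb2 in the order of the cluster on chromosome 11 and likewise a hindbrain gene, gave 2 different readings. On its brightest probe set it read 6.30, 6.19 and 5.99 in PSC, 6.09 and 6.40 in EB_PSC, and 5.82, 6.08 and 6.13 in ESC, and the groups overlapped (difference 0.09 ± 0.15, adjusted p = 0.683). On its other probe set it read 3.999, 4.05 and 4.13 in PSC, 7.34 and 6.16 in EB_PSC, and 4.01, 4.17 and 4.24 in ESC. On that set both embryoid body arrays stood above all others, the first more than the second. The difference there was 2.68 ± 0.25 (adjusted p = 2.78e-06 over all 34958 single-gene probe sets, of which 17.6% were called higher). The mean of both sets gave 1.39 (adjusted p = 6.46e-06). Probe positions are not in the files used here, so which transcript each set reads was not tested.

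Hoxb4, a further neighbour known from blood stem cells and the posterior hindbrain, read 5.66, 5.11 and 5.14 in PSC, 5.76 and 5.70 in EB_PSC, and 4.93, 4.99 and 5.28 in ESC. The embryoid body arrays lay above every stem cell array, by little in the case of PSC 1. The difference of 0.43 ± 0.17 from PSC missed the threshold (adjusted p = 0.0615). Without PSC 1 it was 0.60 (adjusted p = 0.00783). Its other probe set was dim, at 3.60 in PSC and 3.66 in EB_PSC. Hoxb1, at the 3' end and the first to respond to retinoic acid in the hindbrain, read 3.36 in PSC and 3.57 in EB_PSC (adjusted p = 0.202).

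**Figure D3:**
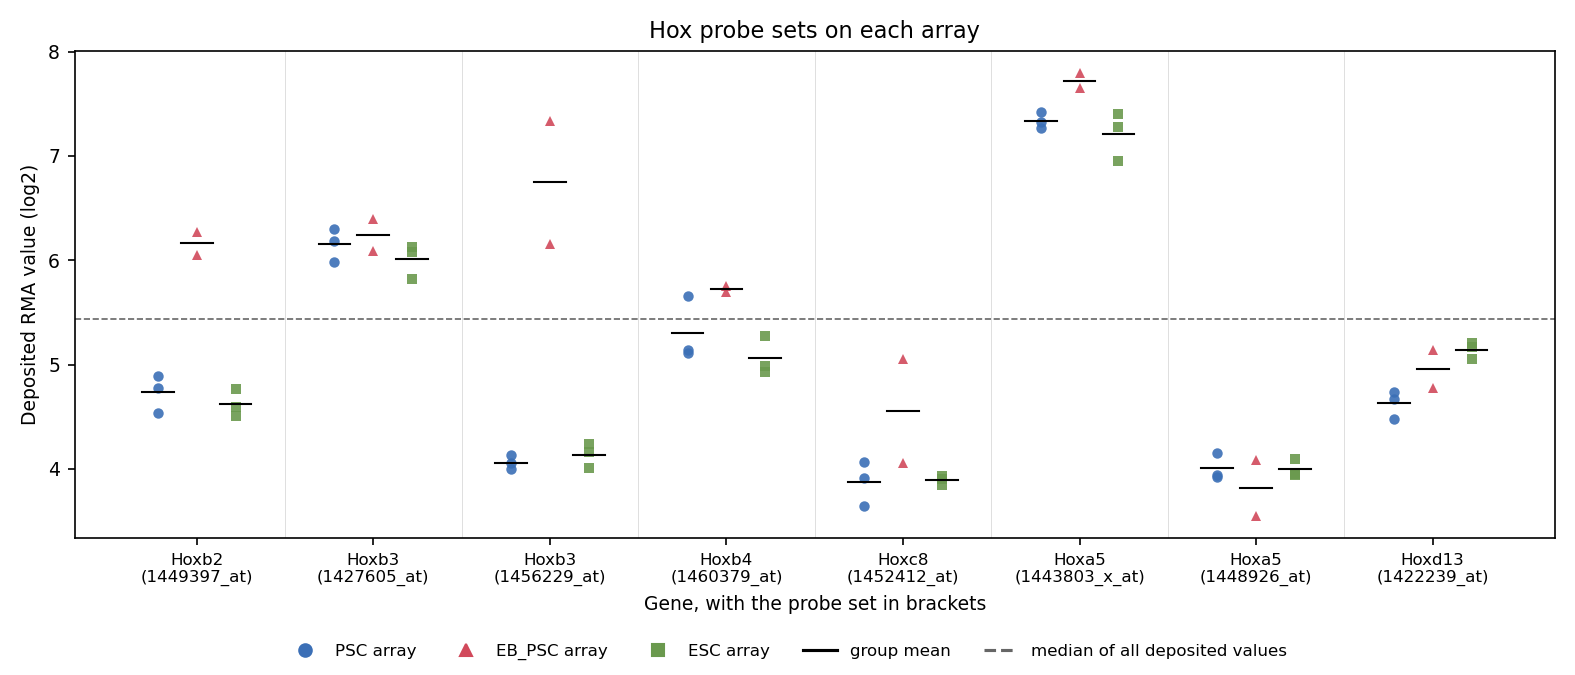
Deposited RMA values (log2, y axis) on every array for 8 Hox probe sets (x axis); black bars are group means and the dashed line is the median of all deposited values, 5.44. The EB_PSC arrays of Hoxb2 and of the dimmer Hoxb3 probe set are far above the others, while the brighter Hoxb3 set overlaps between groups.

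No anterior gene of the other clusters was called higher, where 18.8% of all genes were. All of these anterior genes but Hoxa3 were dim in all groups, and 6.21% of all such dim genes rose. Hoxa3, needed for thymus and parathyroid formation, read 6.67, 6.40 and 6.35 in PSC, 6.07 and 6.08 in EB_PSC, and 6.17, 6.55 and 6.23 in ESC. It was lower in both embryoid body arrays than in all others, by -0.40 ± 0.15 against PSC (adjusted p = 0.0436). That call rests on single arrays: it was lost without PSC 1 (-0.30, adjusted p = 0.158), PSC 2 (0.0625), EB_PSC 1 (0.137), EB_PSC 2 (0.126) or ESC 3 (0.0579), and the 3 other probe sets of Hoxa3 differed by -0.13 to 0.12. Hoxa2, the determinant of the second branchial arch, moved from 3.24 to 3.42, and Hoxa4 from 3.44 to 3.22, neither past the threshold. Hoxc4, Hoxd1 and Hoxd3 differed by 0.04, -0.08 and -0.20 (adjusted p = 0.859, 0.669 and 0.234).

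Among the central genes (paralogues 5 to 8), Hoxa5 and Hoxc8 rose and Hoxc5 fell. Hoxa5, known from lung and axial skeleton, read 7.42, 7.27 and 7.33 in PSC, 7.80 and 7.65 in EB_PSC, and 6.95, 7.40 and 7.27 in ESC. Its embryoid body arrays were the highest, with a difference of 0.38 ± 0.15 from PSC (adjusted p = 0.0476). The other probe set of Hoxa5 read 4.005 in PSC and 3.82 in EB_PSC, a difference in the opposite direction of -0.19 that did not pass (adjusted p = 0.395 over all probe sets). The call was lost without any of PSC 1 (0.0619), PSC 2 (0.127), PSC 3 (0.0964), EB_PSC 1 (0.231), EB_PSC 2 (0.075) and ESC 3 (0.0648 in adjusted p).

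Hoxc8, a thoracic patterning gene, was dim in every group by its mean. It read 4.07, 3.91 and 3.65 in PSC, 4.06 and 5.06 in EB_PSC, and 3.85, 3.93 and 3.91 in ESC. EB_PSC 2 alone stood apart, and EB_PSC 1 lay within the range of PSC. The difference was 0.68 ± 0.22 (adjusted p = 0.0246). Without EB_PSC 2 it was 0.18 (adjusted p = 0.465), and the call was also lost without PSC 2 (0.70, adjusted p = 0.0556) or PSC 3 (0.57, 0.0916). Hoxc5 fell from a mean of 5.15 ± 0.19 (SD, n = 3) in PSC to 4.66 and 4.67 in EB_PSC, by -0.49 ± 0.14 (adjusted p = 0.00999), while its 2 other probe sets differed by 0.06 and 0.07. Hoxa7, Hoxb5, Hoxb6, Hoxb7, Hoxc6 and Hoxd8 did not pass, with differences from -0.39 for Hoxb6 to 0.22 for Hoxd8. Hoxb6 passed without PSC 3 (-0.53, adjusted p = 0.0338).

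Among the posterior genes (paralogues 9 to 13) no gene of 14 rose and 2 fell (14.3%), where 18.8% of all genes rose and 25.2% fell. Of these 14, 10 were dim in all groups, and 6.21% of all such dim genes rose. At an unadjusted p below 0.05 in limma, 1 of the 14, Hoxd13, was higher. Hoxc13, which acts in hair follicles and the tail, read 5.62, 5.96 and 5.29 in PSC, 4.75 and 5.18 in EB_PSC, and 5.33, 5.18 and 5.11 in ESC. PSC was the high group here, and the embryoid bodies overlapped with ESC. The difference from PSC was -0.66 ± 0.19 (adjusted p = 0.0104), and without EB_PSC 1 it was -0.44 (adjusted p = 0.143). Hoxb13, a gene of the tail bud and prostate, fell within the dim range from 4.89 ± 0.10 to 4.33 ± 0.04, by -0.56 ± 0.12 (adjusted p = 0.00182). Hoxc10, a lumbar patterning gene, did not pass (0.24 ± 0.19, adjusted p = 0.331), but like Hoxc8 it was higher in EB_PSC 2 (4.38) than in EB_PSC 1 (3.59) and in all stem cell arrays (3.64 to 3.84). Without EB_PSC 1 the Hoxc10 difference was 0.63 (adjusted p = 0.00657).

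The remaining posterior genes, Hoxa9, Hoxa10, Hoxa11, Hoxa13, Hoxb9, Hoxc9 and Hoxd9 to Hoxd13, did not pass, with differences from -0.39 for Hoxa9 to 0.33 for Hoxd13. In 3 of them the call came with an array left out. Hoxa9 passed without ESC 1 (adjusted p = 0.0494) or ESC 2 (0.0481), Hoxb9 without EB_PSC 2 (-0.49, 0.0462), and Hoxd13 without EB_PSC 2 (0.51, 0.0263). In the Hoxd cluster no gene of 8 was called by limma, where 43.9% of all genes were, and 1, Hoxd13, had an unadjusted p below 0.05. Of these 8 genes, 7 were dim in all groups, and 13.6% of all such dim genes were called. Across the 33 genes, the difference and the paralogue number had a Pearson r of -0.29 and a Spearman rho of -0.23, and without Hoxb2 -0.18 and -0.17. These describe genes that share arrays and clusters and are not independent replicates.

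The stem cell groups were compared to see whether parthenogenetic origin goes with a different Hox state before differentiation. Few Hox differences were found between them. Only Hoxd13 passed, lower in PSC, so that 1 of 33 genes was called (3.03%), where 20.8% of all genes were. It was the 1 gene called lower, where 11.7% of all genes were. Among genes dim in all groups, 4.55% of 22 Hox genes and 3.29% of 5781 genes were called. Among genes above the limit in at least 1 group, 0% of 11 Hox genes and 28.9% of 12413 genes were. No Hox gene was called higher in PSC by limma, where 9.07% of all genes were, and 2, Hoxc5 and Hoxc13, were so at an unadjusted p below 0.05. Differences ran from -0.52 to 0.42 with a median of 0.11, and arrays of the groups did not overlap for 6 genes (18.2%), as for 36.5% of all genes.

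Hoxd13, the most posterior gene of its cluster and a patterning gene of digits, read 4.67, 4.74 and 4.48 in PSC, 5.14 and 4.78 in EB_PSC, and 5.06, 5.20 and 5.17 in ESC. All values were dim and PSC and ESC did not overlap, while EB_PSC 1 lay within the range of ESC. The difference of PSC from ESC was -0.52 ± 0.13 (adjusted p = 0.0112), and without PSC 3 it was -0.44 (adjusted p = 0.0533). The other probe set of Hoxd13 did not differ past the threshold (-0.09, adjusted p = 0.705). Hoxc13 was 0.42 ± 0.17 higher in PSC (adjusted p = 0.099), and without PSC 3 by 0.58 (adjusted p = 0.0322). Fibroblast markers, which feeder cells carry, were lower in PSC than in ESC for 7 of 14 genes (50%, beside 11.7% of all genes) and higher for 0, with a median of -0.66 and a mean level of 5.35 to 5.53 in PSC arrays against 6.04 to 6.36 in ESC arrays. Their part in the Hox values was not tested.

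Against ESC, the embryoid bodies again showed 7 called Hox genes of 33 (21.2%), where 44.9% of all genes were called. This comparison uses the same EB_PSC arrays as the comparison with PSC, and it mixes differentiation with the difference between lines. Hoxb2, Hoxb4, Hoxc8 and Hoxa5 were higher (4 of 33, against 19.3% of all genes), and Hoxb13, Hoxc6 and Hoxa4 were lower (3 of 33, against 25.6%). Arrays did not overlap for 14 genes (42.4%), as for 61.1% of all genes. Among genes dim in all groups, 13.6% of 22 Hox genes and 12.3% of 5781 genes were called. Among genes above the limit in at least 1 group, 36.4% of 11 Hox genes and 60% of 12413 genes were. Hoxb2 differed by 1.54 ± 0.14 (adjusted p = 1.19e-06) and Hoxb4 by 0.66 ± 0.17 (adjusted p = 0.00608). Hoxa5 differed by 0.51 ± 0.15 (adjusted p = 0.0103; 0.0823 without EB_PSC 1) and by -0.18 on its other probe set. Hoxc8 differed by 0.66 ± 0.22 (adjusted p = 0.0272). Without EB_PSC 2 that value was 0.17 (adjusted p = 0.52), and without ESC 1 or ESC 3 the adjusted p was 0.0599 or 0.0607.

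The falls against ESC were small. Hoxb13 was lower by -0.40 ± 0.12 (adjusted p = 0.0142; 0.0779 without EB_PSC 2). Hoxc6, which acts in the thorax and mammary gland, read 5.38 and 5.47 in EB_PSC against 5.80, 5.86 and 5.67 in ESC (-0.35 ± 0.12, adjusted p = 0.0337). Its 2 other probe sets differed by -0.01 and 0.26 (adjusted p = 0.953 and 0.217 over all probe sets), and averaged over all 3 sets the difference was -0.04 (adjusted p = 0.839). Its call was lost without EB_PSC 1 (0.166), EB_PSC 2 (0.0654), ESC 1 (0.0661) or ESC 2 (0.0717 in adjusted p). Hoxa4 differed by -0.34 ± 0.13 within the dim range (adjusted p = 0.0413), by -0.01 on its other probe set (adjusted p = 0.946 over all probe sets) and by -0.18 averaged over both (adjusted p = 0.159). The Hoxa4 call was lost without PSC 1 (0.0505), PSC 2 (0.0531), EB_PSC 1 (0.181), EB_PSC 2 (0.0809), ESC 2 (0.0912) or ESC 3 (0.0869). The dimmer Hoxb3 probe set was 2.61 above ESC (adjusted p = 3.09e-06 over all single-gene probe sets, of which 17.9% were called higher). Without EB_PSC 2, Hoxb5 passed at 0.51 (adjusted p = 0.0241), without EB_PSC 1 Hoxc10 at 0.66 (0.00471), without PSC 2 Hoxa7 at -0.34 (0.0402), and without ESC 2 Hoxd10 at 0.34 (0.0408).

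Of 8 measured TALE cofactors, 2 rose and 1 fell in embryoid bodies against PSC (37.5%, beside 43.9% of all genes), each by more than 1 log2 unit. Meis2, a partner of Hox proteins on DNA, read 4.20, 4.29 and 3.85 in PSC, 7.86 and 7.97 in EB_PSC, and 4.28, 4.49 and 4.40 in ESC. Its embryoid body arrays were far above all stem cell arrays (3.80 ± 0.15, adjusted p = 2.5e-10), and its 3 other probe sets rose by 2.99 to 4.55. Pbx3 read 7.71, 7.55 and 7.51 in PSC and 10.21 and 10.22 in EB_PSC, without overlap (2.63 ± 0.16, adjusted p = 1.98e-08), and rose by 1.18 on its other probe set. Pknox1, an alternative partner of Pbx, fell from 8.24 ± 0.13 (SD, n = 3) to 6.87 ± 0.36 (SD, n = 2), by -1.37 ± 0.22 (adjusted p = 0.000205), and by -1.61 and -2.21 on its other sets.

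Meis1, like Hoxb3, depended on the probe set. Its brightest set stayed at 4.68 in PSC and 4.67 in EB_PSC (adjusted p = 0.967). Its other sets went from 4.10 to 6.41 and from 4.01 to 5.05, both called higher over all probe sets (adjusted p = 4.96e-08 and 5.05e-05), and the mean of all sets gave 1.11 (adjusted p = 2.37e-06). Pbx2, Pbx4, Meis3 and Pknox2 differed by 0.29, 0.05, 0.15 and 0.00 and did not pass (adjusted p = 0.175, 0.799, 0.39 and 0.997). Between PSC and ESC no cofactor of 8 was called by limma, where 20.8% of all genes were, and 3 had an unadjusted p below 0.05. Of the 8 cofactors, 3 were dim in all groups.

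Of the 12 measured inducers and markers of the posterior axis, 3 rose and 2 fell against PSC (41.7%, beside 43.9% of all genes). Evx1, a homeobox gene at the 5' end of the Hoxa cluster, read 4.94, 4.84 and 4.76 in PSC, 5.53 and 6.32 in EB_PSC, and 4.85, 4.86 and 4.79 in ESC. Both embryoid body arrays were above the rest, EB_PSC 2 by more (1.08 ± 0.18, adjusted p = 0.000291). Fgf8, a signal of the growing tail and the heart field, rose within the dim range by 0.67 ± 0.13 (adjusted p = 0.000646). Cdx2, a direct activator of central Hox genes, rose from 5.45 to 5.90 (0.45 ± 0.16, adjusted p = 0.0331), a call lost without PSC 2 (0.29, adjusted p = 0.128), EB_PSC 1 (0.176) or EB_PSC 2 (0.0613), and, averaged over its probe sets, at a difference of 0.12 (adjusted p = 0.427). Tbx6, a gene of presomitic mesoderm, fell by -0.53 ± 0.16 (adjusted p = 0.0142), a call lost without PSC 1 (0.0507), PSC 2 (0.0629) or EB_PSC 1 (0.075). Cdx1, Cdx4, Wnt3, Wnt3a, Msgn1 and Evx2 did not pass.

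Gdf11, which times the switch to posterior Hox genes, fell by -0.36 ± 0.13 (adjusted p = 0.0378). That call was lost without any array of PSC or EB_PSC and without ESC 3, with adjusted p-values from 0.0532 without PSC 3 to 0.179 without EB_PSC 1.

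Of the 12 measured retinoid and hindbrain regulators, 3 rose and 6 fell (75%, beside 43.9% of all genes). Cyp26a1, whose transcription retinoic acid induces, read 5.70, 6.05 and 5.46 in PSC, 9.14 and 8.88 in EB_PSC, and 5.43, 5.79 and 5.54 in ESC. It was higher on both embryoid body arrays, with no overlap (3.27 ± 0.18, adjusted p = 5.54e-09), and its PSC mean of 5.74 lies within the range of the Y-linked genes. Rarb, the receptor with the element shown above, read 3.91, 3.95 and 4.07 in PSC, 6.04 and 6.86 in EB_PSC, and 3.62, 4.06 and 3.90 in ESC, again without overlap (2.47 ± 0.20, adjusted p = 4.03e-07). Crabp2, which carries retinoic acid to the nucleus, rose by 0.84 ± 0.13 (adjusted p = 0.000157). Crabp1, its cytoplasmic relative, fell by -2.21 ± 0.18 (adjusted p = 4.15e-07).

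Gbx2, an anterior hindbrain and early pluripotency gene, fell from 5.44 to 3.83, by -1.61 ± 0.26 (adjusted p = 0.000195), and was already lower in PSC than in ESC by -3.20 (adjusted p = 1.16e-06). Rxra and Egr2 fell by -0.71 and -0.65 (adjusted p = 0.000582 and 0.00393), the latter not past the threshold without EB_PSC 1 (-0.51, adjusted p = 0.0556). Averaged over its probe sets, Rxra differed by -0.16 (adjusted p = 0.259). Rarg and Aldh1a2 fell as well. The Aldh1a2 call was lost without PSC 1 (0.0988), PSC 2 (0.0986), EB_PSC 1 (0.0979) or EB_PSC 2 (0.115 in adjusted p). Between PSC and ESC, 3 of these 12 genes were higher in PSC and 2 lower (41.7%, beside 20.8% of all genes).

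**Figure D4:**
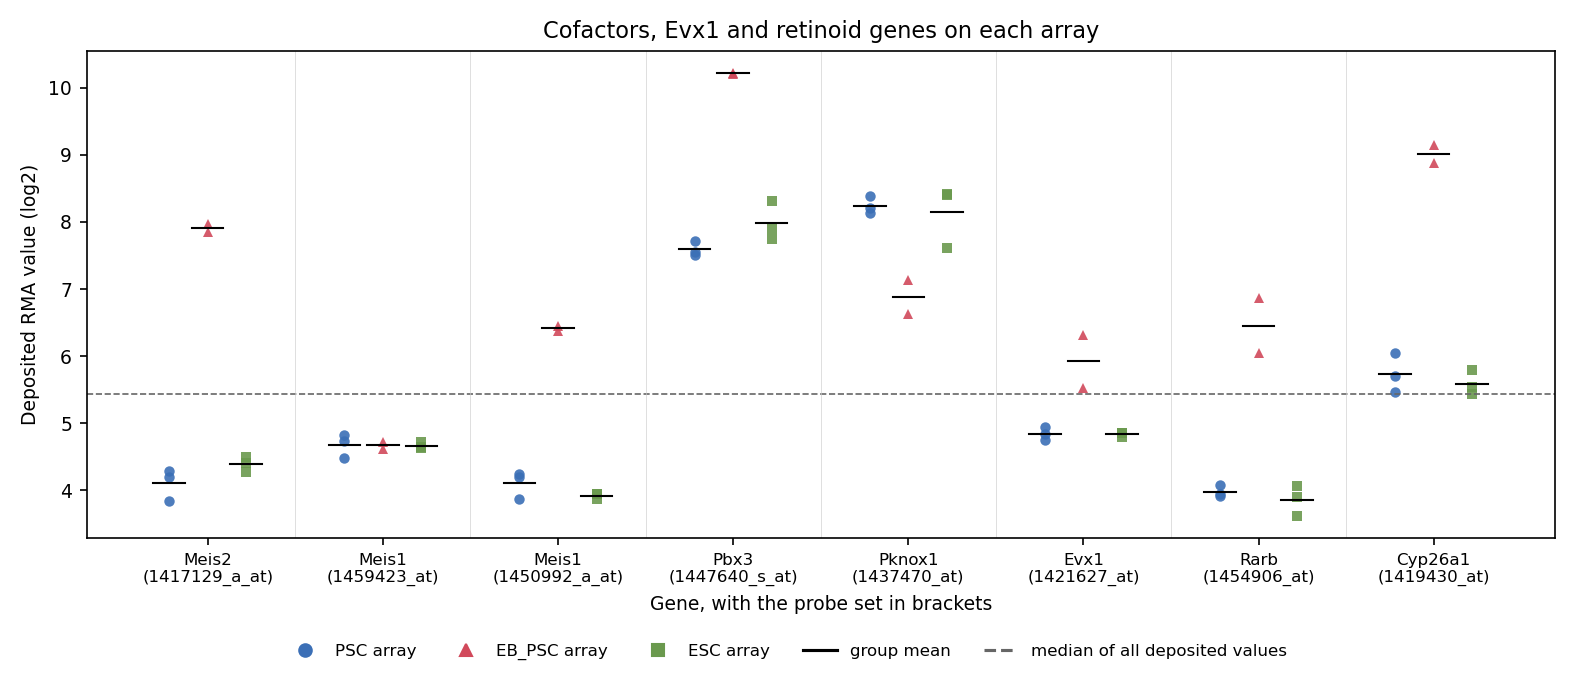
Deposited RMA values (log2, y axis) on every array for cofactors, Evx1 and retinoid genes (x axis, with the probe set in brackets); black bars are group means and the dashed line is the median of all deposited values, 5.44. Meis2, Pbx3, Rarb and Cyp26a1 are higher on both EB_PSC arrays than on any stem cell array, Pknox1 is lower, and Meis1 moves on 1 of the 2 sets shown.

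The chromatin regulators that hold the clusters silent or active shifted mainly downward. Of 25 measured Polycomb and trithorax genes, 3 rose and 15 fell in embryoid bodies (72%, beside 43.9% of all genes), with a median difference of -0.90. Only 1 of the 25 was dim in all groups. Of all genes above the limit in at least 1 group, 58.1% were called and 33.4% fell. Phc1 and Cbx7, subunits of the Polycomb repressive complex that marks pluripotent cells, fell by -2.14 ± 0.16 and -1.92 ± 0.15 (adjusted p = 1.67e-07 and 3.18e-07). Bmi1 went the other way, from 5.46 ± 0.07 (SD, n = 3) to 8.53 ± 0.11 (SD, n = 2), with a difference of 3.07 (adjusted p = 5.82e-10) and of 3.55 on its other probe set. The PSC level again lies within the range of the Y-linked genes. Phc2 rose by 1.59 ± 0.17 (adjusted p = 4.39e-06). In PSC against ESC, 2 of the 25 were higher and 5 lower (28%, beside 20.8% of all genes). Of all genes above the limit in at least 1 group, 28.9% were called there.

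Genes that flank the clusters were also read. Of 15 measured flanking genes, 3 rose and 7 fell (66.7%, beside 43.9% of all genes). Only 1 of the 15 was dim in all groups, and 58.1% of all genes above the limit in at least 1 group were called. Skap2, beside Hoxa, fell by -1.17 ± 0.13 (adjusted p = 6.41e-06) but by -0.24 and 0.04 on its other probe sets, neither called, and Hnrnpa1, beside Hoxc, by -0.97 ± 0.13 (adjusted p = 3.75e-05). Mtx2, beside Hoxd, rose by 0.98 ± 0.12 (adjusted p = 2.38e-05). No measured Hoxd gene was called, and 7 of the 8 were dim in all groups. The 3 noncoding transcripts of the clusters with a probe set of their own, Hoxa11os, Hoxb5os and Hoxd3os1, differed by 0.34, -0.12 and -0.08. None was called by limma, and 1, Hoxa11os, had an unadjusted p below 0.05. Strand and overlap with the coding gene could not be checked for these probe sets.

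Homeobox genes outside the clusters were set beside the Hox genes. Of 21 mesodermal homeobox genes, 9 rose and 0 fell (0 also at an unadjusted p below 0.05), with a median of 0.32. That is 42.9% higher and 0% lower, beside 18.8% and 25.2% of all genes. Prrx2, a mesenchyme gene, read 5.01, 5.26 and 5.03 in PSC and 7.69 and 7.44 in EB_PSC (2.47 ± 0.16, adjusted p = 3.76e-08). Msx2, a target of Bmp signals, read 5.23, 5.41 and 5.32 in PSC and 8.19 and 7.38 in EB_PSC (2.46 ± 0.19, adjusted p = 2.31e-07), while its other probe set differed by 0.03. Irx3, a ventricular and neural gene, rose by 2.07 ± 0.17 (adjusted p = 3.09e-07). Prrx1 rose by 1.29 ± 0.31 (adjusted p = 0.00403), with 7.04 in EB_PSC 1 and 5.57 in EB_PSC 2, and none of its 5 other probe sets was called. Of 17 head homeobox genes, which act in front of the Hox domain, 3 rose (17.6%, beside 18.8% of all genes) and 0 fell (1, Hesx1, at an unadjusted p below 0.05). Dlx2 rose by 1.26 ± 0.15, Otx2 by 1.11 ± 0.16 and Emx2 by 0.44 ± 0.12 (adjusted p = 1.04e-05, 7.35e-05 and 0.00746), and 13 of the 17 were dim in all groups. The difference between these lists and the Hox genes was not tested.

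**Figure D5:**
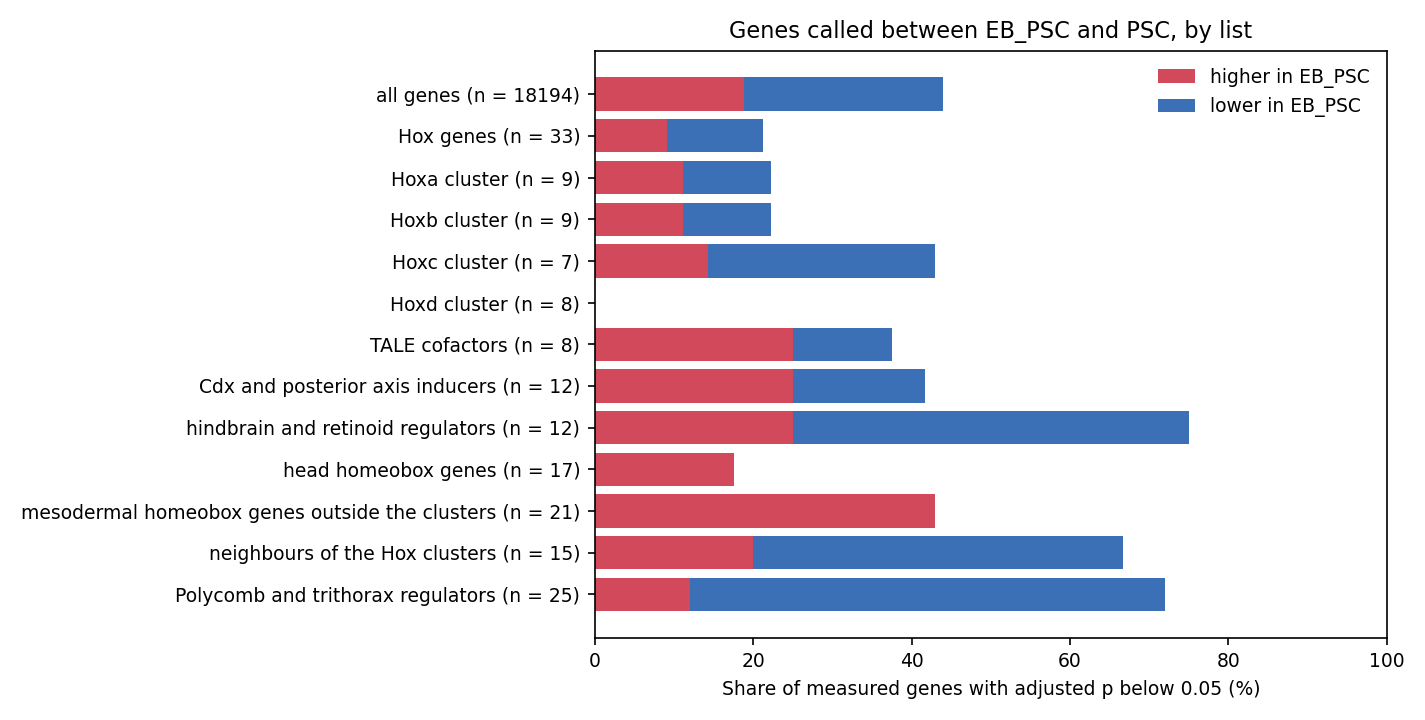
Share of measured genes (x axis, percent) with an adjusted p below 0.05 in EB_PSC against PSC, higher (red) and lower (blue), for all genes, the Hox genes and the other lists (n in brackets). The Hox genes reach 21.2% in all, against 43.9% of all genes. The Hoxd cluster has 0 called, with 7 of its 8 genes dim in all groups, where 13.6% of all such dim genes were called.

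Marker lists of tissues were read beside these Hox values. Over all genes, 18.8% rose and 25.2% fell in embryoid bodies against PSC. All 8 cardiomyocyte markers rose, with a median of 4.26, as did 6 of 6 visceral endoderm markers (2.67) and 11 of 14 fibroblast and mesenchyme markers (2.65). In the last list 1 marker fell. Smooth muscle markers rose in 3 of 4. Endothelial markers rose in 4 of 5 and blood cell markers in 4 of 7, and 1 of each list fell. Of 6 epithelial markers 2 rose and 1 fell, and of 5 neural crest markers 1 rose. Of 10 neuron and neural progenitor markers, 3 rose and 3 fell, and their mean level was 5.79 to 5.96 in PSC and 5.76 and 5.94 in EB_PSC. Of 7 markers of paraxial mesoderm, the source of the somites, 0 rose and 3 fell (0 rose also at an unadjusted p below 0.05). In intermediate and lateral mesoderm 5 of 8 rose, led by Tbx20 and Hand2 (5.69 and 4.97). The EB_PSC arrays also differed from each other. Twist1 and Lhx1, like the dimmer Hoxb3 set, were higher in EB_PSC 1 (7.24 against 5.76, and 7.99 against 6.81), while Ednrb and Ptprc, like Hoxc8 and Hoxc10, were higher in EB_PSC 2 (8.76 against 6.94, and 6.57 against 4.11). These are single genes, and their lists did not all follow them. Fibroblast and mesenchyme markers, with Twist1, had a mean level of 8.11 in EB_PSC 1 and 8.26 in EB_PSC 2. Intermediate and lateral mesoderm markers, with Lhx1, read 6.52 and 6.51. Neural crest markers, with Ednrb, read 5.765 and 6.259, and blood cell markers, with Ptprc, 7.33 and 7.91. The part of cell makeup in the Hox values was not tested.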

How the data were processed

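Total RNA of 8 samples was labelled with biotin and hybridised to 1-colour Affymetrix mouse arrays. The deposited values are log2 summaries per probe set that the authors made with RMA, per the submitters' processing notes. The labels' protocols cite Bioconductor. Versions and background settings: not given in the sources used here. RMA brings arrays to nearly the same distribution, so a shift of most transcripts one way is not visible, and dim probe sets show smaller differences than their transcripts may have. The log2 scale was read from the values (2.56 to 14.9).

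Of 45101 probe sets, the platform annotation gave 1 gene to 34958, several to 932 and none to 9211. Probe sets with 1 gene were kept, and each of 18194 genes took its brightest. All 33 Hox genes matched RefSeq by Entrez identifier, which updated 0 symbols.

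Groups were compared in limma 3.58.1 (R 4.3.3) in a joint fit of all 8 arrays with 5 residual and 8.07 prior degrees of freedom, two-sided, adjusted by Benjamini-Hochberg over all genes, and called at an adjusted p below 0.05. The fit was tested on simulated data. Differences are in log2 units ± SE. Python 3.11.15 and Matplotlib 3.10.9 made the motif search and figures. The rule names every Hox gene and TALE cofactor, and up to 4 called members of each other list by size of the difference. Genes named outside it were chosen after their values were seen: Gdf11, Crabp2, Rxra, Egr2, Rarg and Aldh1a2, which go past those 4, cell markers, genes in which the EB_PSC arrays differ, and genes that did not pass. The members and lists were chosen with earlier results of these data known. Alternatives covered normalization, dim probe sets, the choice of probe set, the fit, the replicate block and each array left out. Precision is limited by how few arrays there are, with 2 in EB_PSC.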

Additional observations from a re-analysis of the deposited data

How the results depend on the processing

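Hoxb2 kept its call in both embryoid body comparisons under all 20 alternatives, and the median Hox difference stayed between -0.13 and -0.00 against PSC, between 0.03 and 0.15 for PSC against ESC, and between -0.14 and -0.01 for embryoid bodies against ESC. Counts of called Hox genes moved more. For EB_PSC against PSC, 3 higher became 5 with cyclic loess and 1 at a minimum of 1 log2 unit (1 to 3 with an array left out). The 4 lower became 2 with the filter on dim probe sets (which left 11 Hox genes), 2 with the higher group required above 5.44, 0 at 1 log2 unit and 2 with the mean of all probe sets (2 to 5 with an array left out). For PSC against ESC, 0 higher became 2 with array weights (0 to 1 with an array left out), and 1 lower became 0 with the dim filter, the higher group above 5.44, 1 log2 unit or the mean of probe sets (0 to 1). For EB_PSC against ESC, 4 higher became 1 at 1 log2 unit (3 to 5), and 3 lower became 1 with the higher group above 5.44, 0 at 1 log2 unit and 1 with the compared groups alone (0 to 3). Hoxa5 changed sign without _x_at and _s_at probe sets, to -0.19 against PSC and -0.18 against ESC, and Meis1 with the mean of its probe sets, to 1.11. The alternatives' construction sets the counts under dimness and fold limits, and for the others the cause was not tested.

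With the replicate number as a block, 1 Hox gene was lower in EB_PSC than in ESC, in place of 3, and no other Hox count moved by over 1.5 times. Same-numbered arrays deviated from their group means with correlations of -0.25 to 0.19. With 2 or 3 arrays in a group these deviations are tied to each other. The check therefore cannot decide whether the numbers pair the samples. Low signal limits what can be read for the 22 of 33 genes that were dim in all groups. Its part in the low count was not tested. Of the genes dim in all groups, 13.6% of the Hox genes and 13.6% of all were called. Above the limit in at least 1 group, 36.4% of 11 Hox genes and 58.1% of 12413 genes were called. These sets were not matched for level.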

Other observations

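How often a brightest probe set missed a rise was counted over all genes. Of 9012 genes with several single-gene probe sets, 4520 were not called on the brightest set in embryoid bodies against PSC, with p-values adjusted over all such probe sets. Of these, 234 (5.18%) were called higher by at least 1 log2 unit on another set, and 112 were called lower by as much. Among the Hox genes, 11 had several sets, 10 were not called on the brightest, and 1 of these (10%), Hoxb3, was higher on another. Meis1 was a further such gene. Nkx1-2, a homeobox gene of the caudal epiblast, was chosen after its values were seen: its brightest set read 4.86 in PSC and 4.91 in EB_PSC, while a dimmer set read 3.21, 3.44 and 3.55 in PSC, 6.08 and 5.60 in EB_PSC, and 3.67, 4.19 and 4.14 in ESC. On that set the embryoid body arrays were above all others (2.44 ± 0.19, adjusted p = 5.21e-07), and its remaining set did not differ past the threshold (0.18, adjusted p = 0.413).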
